A study of Mus musculus with 2 samples.

Results

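In the lung-recovered culture of the mouse rectal carcinoma line CMT-93, 75 of 18193 genes on the array read above the dim end of the scale after reading within it in the parental culture. A gene was taken if its parental signal was at or below the parental array's 40th percentile over all probe sets, 4.69 log2, and its lung-recovered signal was at least 1 log2 above that value, at 5.69 log2 or more. Each gene was read by 1 probe set, the brightest over both arrays of those annotated with that gene alone. There were 5275 genes at or below the parental limit, and 81 of them, 1.54%, met both limits, which is 0.445% of all 18193. Of the 81, the 6 genes Pfn2, Tm4sf1, Cdh5, Cdhr2, Gcnt1 and Rtkn2 were set aside by the rule. With the lines exchanged, 54 of the 5165 genes at or below the lung-recovered array's own 40th percentile, 4.59 log2, met the mirrored limits, or 1.05%. Because the signals themselves chose the genes, their differences are a description and carry no test.

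The lung-recovered line, CMT-93-PM1, is a primary culture of lung tumours from female C57BL/6 mice that had received CMT-93 cells by tail vein at 6 weeks of age and were examined 8 weeks later. It was set against CMT-93 kept in culture. Both lines were grown in Dulbecco's medium with serum and antibiotics, and each gave 6 µg of total RNA to 1 array, so there is no replicate spread for either. The labels do not give how many tumours or mice the recovered culture came from, and tissue put into culture can carry host cells. In such RNA, fewer cells of a type and less RNA per cell cannot be told apart.

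Tumour cells that reach the lung in the blood lodge in its small vessels, cross the vessel wall and grow among endothelium, epithelium and white blood cells. Proteins released from the cell, displayed on its surface, or moving its skeleton and membranes are much studied in that setting. A probe set gives a dim signal for a silent gene and for a weakly used one, so a low parental signal does not show silence. Each gene is therefore given a lower bound on its difference, its lung-recovered signal over the parental limit of 4.69 log2, written as "at least N-fold". Genes outside the 75 are likewise given by their brightest probe set unless another is named.

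The 75 genes comprised 71 protein-coding genes and 4 long noncoding RNAs. Their lung-recovered signals ran from 5.69 to 10.74 log2 with a median of 6.32, against parental signals of 3.13 to 4.69 with a median of 4.21. The bounds ran from at least 2-fold to at least 66.3-fold, with a median of 3.1-fold. Of the 75, 28 were at least 4-fold higher, 8 at least 8-fold and 3 at least 16-fold, while 37 had bounds under 3-fold. Many of the genes thus stood a small step above the limit, with a short tail of large differences. Sorted by known role, they fell into 10 groups, which were assigned by hand and have no share over all genes to stand beside.

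**Figure D1:**
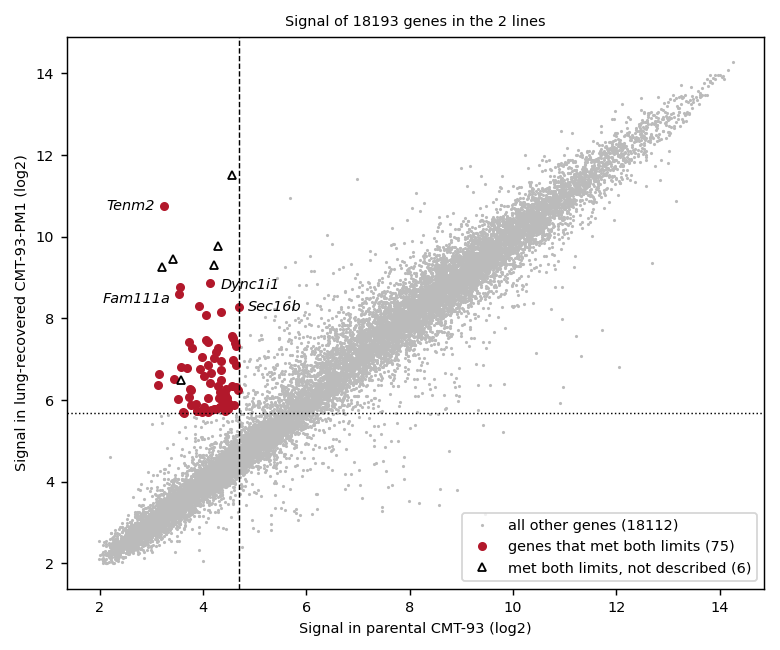
Each point is 1 of the 18193 genes, placed by its signal in parental cells (horizontal axis, log2) and in lung-recovered cells (vertical axis, log2). Filled points are the 75 genes, open triangles the 6 set aside, and the lines mark the lung-recovered limit of 5.69 (dotted) and the parental limit of 4.69 (dashed). Tenm2 stands far above the other filled points, at 10.74 in lung-recovered and 3.24 in parental cells.

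The 9 secreted signals and matrix proteins had a median bound of 3.16-fold, and 1 of them was at least 4-fold higher. That gene was Fst, which encodes follistatin, a protein that binds activins and keeps them from their receptors. It read 8.78 log2 in lung-recovered cells and 3.55 in parental cells, at least 17.0-fold higher, and its second probe set read 7.75 in lung-recovered and 4.02 in parental cells, at least 8.34-fold higher. Inhba, which encodes the subunit of activin A, read 10.20 in lung-recovered and 8.95 in parental cells, 2.38-fold higher, although its other probe set was below the limits in both. Fstl3, a relative of follistatin that also binds activins, read 9.36 in lung-recovered and 8.31 in parental cells, 2.07-fold higher. An activin subunit, by 1 probe set, and both binding proteins were thus higher in the lung-recovered culture. Inhbb, the other activin subunit gene listed, was not higher, at 5.57 in lung-recovered and 5.90 in parental cells. The activin receptor gene Acvr2a, at 8.39 in lung-recovered and 8.17 in parental cells, differed by less than 2-fold, as did Acvr2b and Acvr1b.

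A pair of growth factors of embryonic patterning was among the 9. Wnt9a, a ligand of the Wnt pathway, read 6.5 in lung-recovered and 4.35 in parental cells, at least 3.51-fold higher, with its other probe set dim in both lines. Fgf18, a fibroblast growth factor of bone and lung development, read 6.41 in lung-recovered and 4.14 in parental cells, at least 3.29-fold higher. Of the FGF receptors, Fgfr3 was 2.06-fold higher, at 7.02 in lung-recovered and 5.98 in parental cells, but its other probe set ran the other way, at 5.33 in lung-recovered and 5.62 in parental cells. The call for Fgfr3 therefore rests on 1 probe set. Among 61 growth factor and receptor genes at or below the parental limit, 2 were members, or 3.28%. Beside it, the 75 members were 1.42% of all genes at or below that limit. Of 97 measured genes of that family, 12 were higher in lung-recovered cells by 2-fold or more and 3 were lower by as much. The share of higher genes was 12.4%, beside 4.42% of all 13332 measured genes, and that of lower genes 3.09%, beside 2.55%. The 12 higher genes include the 2 members, which are higher by the rule.

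Of other members with a known role in Wnt signalling, Lrp5 and Dixdc1 lay just above the limit, and Tcim, given below, had a bound of 3.18-fold. Lrp5, a co-receptor for Wnt ligands, read 5.93 in lung-recovered and 4.49 in parental cells, and Dixdc1, a DIX-domain protein that acts with Dishevelled, read 5.89 in lung-recovered and 3.76 in parental cells. Their bounds were 2.36-fold for Lrp5 and 2.3-fold for Dixdc1, and none of the other 3 probe sets of Dixdc1 met the limits. Lrp6, the close relative of Lrp5, read 8.91 in lung-recovered and 8.81 in parental cells. Dvl2, a Dishevelled protein, was 2.64-fold higher, at 8.47 in lung-recovered and 7.07 in parental cells, and 2.57-fold higher by its other probe set. Axin2, a widely used target gene of the pathway, read 8.88 in lung-recovered and 7.99 in parental cells, short of 2-fold. Of 10 Frizzled receptor genes, none reached 2-fold by its brightest probe set. Fzd2 came nearest at 6.89 in lung-recovered and 5.91 in parental cells, and another of its probe sets was 2.45-fold higher at 6.01 in lung-recovered and 4.72 in parental cells.

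Ppbp, Il23a and Tslp are signals to white blood cells. Ppbp, a chemokine precursor best known from platelets, read 6.14 in lung-recovered and 4.42 in parental cells, at least 2.73-fold higher. Il23a, the subunit specific to interleukin 23, read 6.04 in lung-recovered and 4.09 in parental cells, at least 2.55-fold higher. Its partner subunit Il12b was dim in both lines, at 3.01 in lung-recovered and 3.26 in parental cells. Tslp, an epithelial cytokine that acts on dendritic cells, had a bound of 2.06-fold and lay near the limit at 5.73 in lung-recovered and 4.42 in parental cells. Crlf2, a chain of the TSLP receptor, was 2.06-fold lower, at 8.05 in lung-recovered and 9.09 in parental cells. The receptor gene Cxcr2 and the platelet chemokine gene Pf4 were below the limits in both lines. The 3 extracellular matrix proteins were Thbs3, a thrombospondin, at 6.35 in lung-recovered and 4.29 in parental cells, Sbspon, a secreted protein with somatomedin B and thrombospondin domains, at 6.35 in lung-recovered and 4.56 in parental cells and by a second probe set at 5.98 in lung-recovered and 3.17 in parental cells, and Adamtsl4, a protein of fibrillin microfibrils, at 6.32 in lung-recovered and 4.63 in parental cells.

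The 13 surface adhesion proteins and receptors spanned the whole range of bounds, with a median of 2.95-fold, and 4 of them were at least 4-fold higher. Tenm2 encodes teneurin 2, a large transmembrane protein of cell contacts in the nervous system that binds latrophilins. Its brightest probe set read 10.74 log2 in lung-recovered and 3.24 in parental cells, at least 66.3-fold higher and the largest bound of the 75. A second probe set read 7.38 in lung-recovered and 4.82 in parental cells, higher as well but from above the parental limit. The other 2 did not show the difference, at 4.44 in lung-recovered and 4.83 in parental cells, and at 3.26 in lung-recovered and 3.49 in parental cells. The size of the Tenm2 difference therefore depended on the probe set. The latrophilin gene Adgrl1 read 9.32 in lung-recovered and 9.57 in parental cells, and the other teneurins differed by less than 2-fold or were dim in both lines.

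Ncmap, a membrane protein of peripheral myelin, read 7.57 in lung-recovered and 4.56 in parental cells, at least 7.36-fold higher. Fam171b, a membrane protein of little known function, had a bound of 7.11-fold from 7.52 in lung-recovered and 4.57 in parental cells, and its second probe set, at 5.24 in lung-recovered and 3.56 in parental cells, stopped short of the limit. Itgb2 encodes the beta 2 integrin chain, through which white blood cells adhere to endothelium. It read 7.04 in lung-recovered and 4.21 in parental cells, at least 5.1-fold higher. Of the alpha chains that pair with it, Itgal read 4.54 in lung-recovered and 4.80 in parental cells, Itgam 3.63 in lung-recovered and 3.38 in parental cells, and Itgax 4.26 in lung-recovered and 4.34 in parental cells. An integrin chain reaches the surface as a pair, and these 3 alpha chains all read below the parental limit in lung-recovered cells.

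Several other surface genes are best known from blood cells, nerve or muscle. Bst1, an ectoenzyme of bone marrow stroma, read 6.60 in lung-recovered and 4.02 in parental cells, and its second probe set 6.74 in lung-recovered and 2.99 in parental cells, so both placed it at least 3.76-fold higher. P2ry12, the ADP receptor of platelets and microglia, read 6.26 in lung-recovered and 4.45 in parental cells. Klra2, of the natural killer lectin receptors, read 5.90 in lung-recovered and 3.86 in parental cells. Chrna1, the alpha subunit of the muscle acetylcholine receptor, read 6.06 in lung-recovered and 4.46 in parental cells, beside its partner Chrnb1 at 8.33 in lung-recovered and 7.99 in parental cells. The bounds of these last 3 lay between 2.31-fold and 2.97-fold. The remaining surface genes were Ly6g6d and Lypd6b of the Ly6 family, Sspn of the dystrophin complex and Btn1a1, a butyrophilin of milk fat, with bounds of 2-fold to 2.95-fold.

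The 5 membrane transporters had a median bound of 3.53-fold. Slc40a1 encodes ferroportin, the exporter of iron from cells, and read 7.17 in lung-recovered and 4.26 in parental cells, at least 5.58-fold higher. Its second probe set read 5.86 in lung-recovered and 3.34 in parental cells and met both limits too. Tfrc, the transferrin receptor through which cells take iron in, was 9.99-fold lower, at 9.36 in lung-recovered and 12.68 in parental cells. Its other probe sets were lower as well, at 6.87 in lung-recovered and 9.77 in parental cells, and at 5.43 in lung-recovered and 8.30 in parental cells. Cp, ceruloplasmin, which oxidises exported iron, was 2.17-fold higher at 9.76 in lung-recovered and 8.64 in parental cells. The iron exporter and a partner in export thus read higher and the main importer lower, while the ferritin gene Fth1, at 13.97 in lung-recovered and 13.96 in parental cells, and the transporter gene Slc11a2, at 8.11 in lung-recovered and 8.21 in parental cells, hardly differed. Slc39a8, an importer of zinc, manganese and iron, lay at the limit with 5.71 in lung-recovered and 4.10 in parental cells, and its second probe set stopped short of it.

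Slc16a6, of the monocarboxylate transporter family, read 7.33 in lung-recovered and 4.63 in parental cells, at least 6.23-fold higher, from a parental signal close under the limit. Abca13, a very large ABC transporter, read 6.51 in lung-recovered and 3.43 in parental cells, and its second probe set 6.77 in lung-recovered and 3.07 in parental cells. Mfsd2a, a carrier of lysophospholipids with omega-3 fatty acids, had a bound of 2.14-fold. Of 116 solute carrier genes at or below the parental limit 3 were members, or 2.59% beside 1.42% of all genes at or below it. Of 252 measured solute carriers, 10, or 3.97%, were higher by 2-fold or more in lung-recovered cells, beside 4.42% of all measured genes. The 10 include the 3 members, which are higher by the rule. Another 18, or 7.14%, were lower by as much, beside 2.55%.

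The 7 cytoskeletal, motor and ciliary proteins had the highest median bound of the 10 groups, 6.02-fold. Dync1i1, an intermediate chain of cytoplasmic dynein best known from neurons, read 8.87 in lung-recovered and 4.13 in parental cells, at least 18.1-fold higher. Its widely expressed relative Dync1i2 read 11.11 in lung-recovered and 10.82 in parental cells. Kif5c, a kinesin heavy chain of neurons, read 7.48 in lung-recovered and 4.05 in parental cells, at least 6.92-fold higher, while its widely expressed relative Kif5b read 11.57 in lung-recovered and 11.34 in parental cells. Kif5a, the other kinesin heavy chain of neurons, was not higher, at 5.5 in lung-recovered and 5.93 in parental cells. Of Kif5c's other probe sets, one met both limits at 6.25 in lung-recovered and 4.12 in parental cells and 2 were dim in both lines.

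Mylk, the kinase that phosphorylates myosin light chains, read 7.41 in lung-recovered and 4.62 in parental cells, at least 6.59-fold higher. A second probe set met both limits at 6.46 in lung-recovered and 4.50 in parental cells, and the remaining one read 4.99 in lung-recovered and 5.24 in parental cells, above the parental limit and not higher. Trim54, a muscle protein that binds microtubules, had a bound of 6.02-fold. Spire1, which nucleates actin filaments, read 6.63 in lung-recovered and 3.15 in parental cells by one probe set and 6.30 in lung-recovered and 3.09 in parental cells by another, while 3 more were dim in both lines. Cplane2, of ciliary assembly, had a bound of 2.28-fold, and Vash2, an enzyme that trims tubulin, one of 2.14-fold. Vash2 works with Svbp, which read 8.73 in lung-recovered and 8.77 in parental cells. Among 76 cytoskeletal and motor genes at or below the parental limit 3 were members, or 3.95% beside 1.42% of all genes at or below it. Of the 182 measured genes of that family 18, or 9.89%, were higher by 2-fold or more, beside 4.42% of all measured genes. The 18 include the 3 members, which are higher by the rule. The match of symbols also took in Dynap, 12.9-fold higher, and the autophagy gene Map1lc3a, 8.11-fold higher, so the 18 are not all cytoskeletal or motor genes. In that family 1 gene, or 0.549%, was lower by as much, beside 2.55% of all measured genes.

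Of the 7 genes of GTPase control and membrane traffic, 5 were at least 4-fold higher, and the median bound was 4.35-fold. Sec16b organises the sites where vesicles leave the endoplasmic reticulum, and it read 8.27 in lung-recovered and 4.69 in parental cells, at least 12-fold higher. Its parental signal was exactly at the limit. Its relative Sec16a read 9.46 in lung-recovered and 9.18 in parental cells. Rab20, a small GTPase of endosomes and phagosomes, had a bound of 4.86-fold at 6.97 in lung-recovered and 4.57 in parental cells. Arhgef3, a guanine nucleotide exchange factor, read 6.86 in lung-recovered and 4.64 in parental cells, and Cyth4, an ARF activator of white blood cells, 6.81 in lung-recovered and 3.58 in parental cells. Their bounds were 4.5-fold for Arhgef3 and 4.35-fold for Cyth4, whereas the related Cyth1, Cyth2 and Cyth3 differed by less than 2-fold. Cpne4, a copine that binds membranes under calcium, Rgl3, an activator of Ral GTPases, and Atl1, an atlastin that fuses endoplasmic reticulum membranes, had bounds of 2.55-fold to 4.2-fold. Among 54 small GTPase and regulator genes at or below the parental limit, 3 were members, or 5.56% beside 1.42% of all genes at or below it. Of the 203 measured genes of that family, 10, or 4.93%, were higher by 2-fold or more, near the 4.42% of all measured genes. The 10 include the 3 members, which are higher by the rule. Another 3 genes, or 1.48%, were lower by as much, beside 2.55% of all measured genes.

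The 6 intracellular signalling genes were mostly near the limit, with a median bound of 2.59-fold. Asb5, a substrate adaptor of ubiquitin ligases in muscle, was the exception at 7.06 in lung-recovered and 3.98 in parental cells, at least 5.17-fold higher. Gucy1a2 encodes an alpha subunit of the nitric oxide receptor guanylate cyclase and read 6.20 in lung-recovered and 4.32 in parental cells. Gucy1b1, the beta subunit that the enzyme needs, was below the limits in both lines at 4.01 in lung-recovered and 4.60 in parental cells. Ppp2r2c, a regulatory B subunit of protein phosphatase 2A, read 6.05 in lung-recovered and 4.42 in parental cells, at least 2.57-fold higher, with its other 2 probe sets dim in both lines. Its relative Ppp2r2b, another subunit best known from brain, read 3.22 in lung-recovered and 6.11 in parental cells, at least 2.87-fold lower, with its other probe set dim in both lines. The difference between these B subunit genes thus rests on 1 probe set each. Ppp2r2a, at 10.61 in lung-recovered and 10.56 in parental cells, differed by less than 2-fold by its brightest probe set, although a dimmer one was 2.35-fold higher at 6.84 in lung-recovered and 5.61 in parental cells. Ppp3cc, a catalytic subunit of calcineurin, had a bound of 2.33-fold and Rwdd3, an enhancer of SUMO attachment, one of 2.62-fold.

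The 8 nuclear proteins had a median bound of 4.38-fold. Fam111a, a protease that acts at replication forks and restricts viruses, read 8.60 in lung-recovered and 3.54 in parental cells, at least 15.0-fold higher. Morc4, an ATPase that binds methylated histone H3, read 8.30 in lung-recovered and 3.93 in parental cells, at least 12.2-fold higher. Both were measured by 1 probe set only. Ell2, an elongation factor of RNA polymerase II that is abundant in plasma cells, read 7.43 in lung-recovered and 3.72 in parental cells, at least 6.68-fold higher. Its other probe set was dim in both lines. Med12l, a relative of the Mediator kinase module subunit Med12, read 7.28 in lung-recovered and 3.79 in parental cells, at least 6.02-fold higher, but its other 2 probe sets were dim in both lines. Med12 read 7.44 in lung-recovered and 7.46 in parental cells.

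The 2 sequence-specific transcription factors were Six4, a homeodomain factor of muscle and sensory organs, and Hey2, a repressor downstream of Notch. Six4 read 6.26 in lung-recovered and 3.75 in parental cells, at least 2.97-fold higher, and 2 of its other probe sets met both limits, at 6.55 in lung-recovered and 3.08 in parental cells, and at 6.13 in lung-recovered and 2.56 in parental cells. Eya1, a coactivator that binds Six4, read 8.18 in lung-recovered and 7.35 in parental cells, short of 2-fold. Hey2 read 6.03 in lung-recovered and 3.51 in parental cells, at least 2.53-fold higher. The receptor gene Notch4 was 3.63-fold lower, at 5.96 in lung-recovered and 7.82 in parental cells by 1 of its 3 probe sets, and Notch1, Notch2 and Notch3 differed by less than 2-fold. Tcim, a small regulator of Wnt signalling and the cell cycle, had a bound of 3.18-fold and Hmgn3, a nucleosome-binding protein, one of 2.07-fold. Of 143 genes of transcription factor families at or below the parental limit 2 were members, or 1.4%, close to the 1.42% of all genes at or below it.

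The 9 metabolic and redox enzymes split into 4 with bounds of at least 4-fold and 5 near the limit. Gpx8, a peroxidase of the endoplasmic reticulum membrane, read 8.15 in lung-recovered and 4.34 in parental cells, at least 11-fold higher. Its relatives Gpx1, at 11.17 in lung-recovered and 11.90 in parental cells, and Gpx4, at 12.41 in lung-recovered and 12.53 in parental cells, differed by less than 2-fold. Tph1, tryptophan hydroxylase 1, starts serotonin synthesis outside the brain and is known from the enterochromaffin cells of the gut. It read 8.09 in lung-recovered and 4.05 in parental cells, at least 10.6-fold higher. Ddc, the enzyme of the next step, was dim in both lines at 3.92 in lung-recovered and 4.15 in parental cells, as was Tph2. Gch1, which starts the synthesis of the cofactor that Tph1 needs, read 10.03 in lung-recovered and 10.72 in parental cells.

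Gusb, the lysosomal beta-glucuronidase, read 7.42 in lung-recovered and 4.09 in parental cells, at least 6.63-fold higher, and 6.25 in lung-recovered and 4.03 in parental cells by its second probe set. It is widely used as a housekeeping gene, and its parental signal was in the dim end by both. Gstm5, a glutathione transferase, read 6.79 in lung-recovered and 3.69 in parental cells, at least 4.29-fold higher. The related Gstm1, at 8.11 in lung-recovered and 7.33 in parental cells, and Gstm4, at 5.79 in lung-recovered and 4.89 in parental cells, stayed under 2-fold, and genes of this cluster are alike enough in sequence that their probe sets may share signal. Acox2 of peroxisomal bile acid synthesis, the aldehyde oxidase gene Aox1, Daglb, a lipase that makes the endocannabinoid 2-AG, Ptgr1, a prostaglandin reductase, and Selenom, a selenoprotein of the endoplasmic reticulum, had bounds of 2.03-fold to 2.64-fold.

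Among the 7 other or little known proteins, Zc3h6, a zinc finger protein, read 6.95 in lung-recovered and 4.35 in parental cells, at least 4.79-fold higher, with a second probe set dim in both lines. Cryba4, a crystallin of the lens, read 6.86 in lung-recovered and 4.10 in parental cells, at least 4.5-fold higher. Mipol1 read 6.74 in lung-recovered and 4.34 in parental cells, at least 4.14-fold higher, and another probe set met both limits, while a further one read 5.73 in lung-recovered and 4.83 in parental cells, above the parental limit. Fam89a, Trap1a, N4bp2l1 and Lemd1 had bounds of 2.01-fold to 2.71-fold. The noncoding RNAs Med9os, C430042M11Rik, 5033403F01Rik and A830052D11Rik were all near the limit, at 5.93 to 6.24 in lung-recovered cells, with bounds of 2.36-fold to 2.93-fold. Genes known by a clone or model number made up 1071 of the genes at or below the parental limit. Of these, 3, or 0.28%, were members, beside 1.42% of all genes at or below it.

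**Figure D2:**
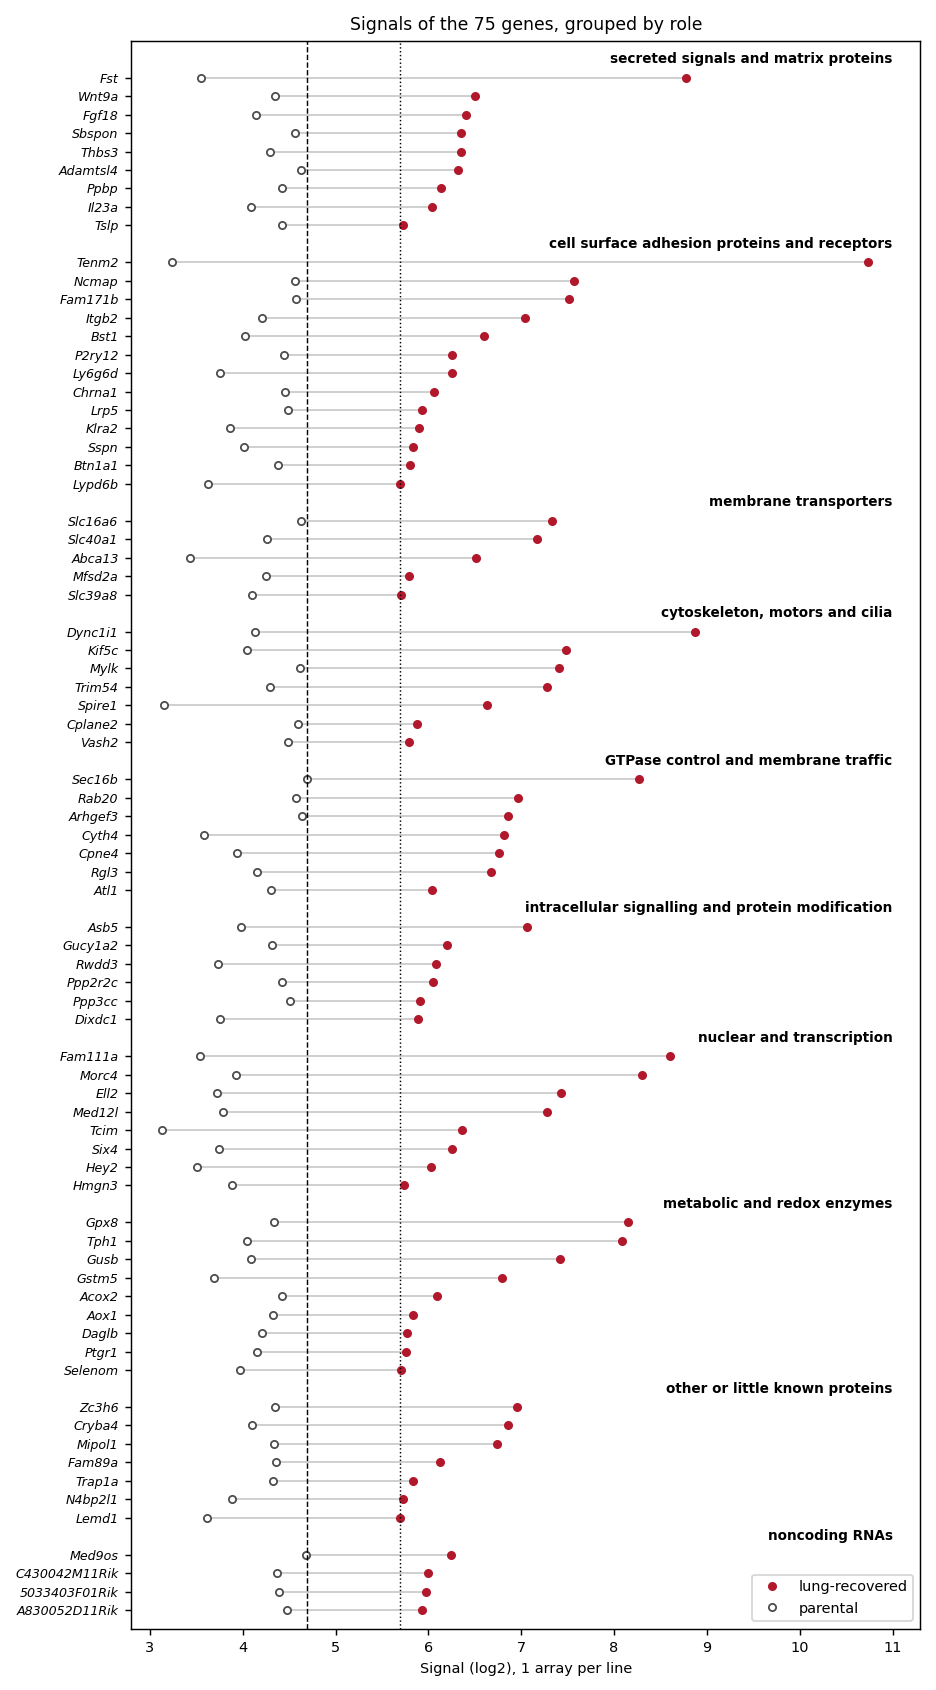
Signals (log2, horizontal axis) of the 75 genes in lung-recovered cells (filled) and parental cells (open), 1 array per line, grouped by role and joined by a line for each gene. The dashed line is the parental limit of 4.69 and the dotted line the lung-recovered limit of 5.69. The widest spans belong to Tenm2, Fst and Fam111a, and the 4 noncoding RNAs lie between 5.93 and 6.24 in lung-recovered cells.

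Relatives and partners of the members were listed from general knowledge after the members were known, 149 genes in all. Of these, 137 were on the array with a probe set of their own, 104 were measured and 33 were below the limits in both lines. In lung-recovered cells 6 were higher by 2-fold or more, namely Inhba, Fstl3, Dvl2, Fgfr3, Cp and Crybb1. Another 4 were lower by as much, namely Tfrc, Crlf2, Ppp2r2b and Notch4. Their median difference was -0.03 log2, beside 0.00 over all measured genes. Over all 13332 measured genes, 4.42% were higher and 2.55% lower by as much. Most of the listed relatives and partners, like most genes on the array, differed by less than 2-fold or were dim in both lines.

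In families defined by gene symbol, 24 of the 75 genes belonged to at least 1 of 28 families. Keratin, Zfp zinc finger and germ cell symbol patterns, with 55 to 92 genes each at or below the parental limit, held 0 members. At so few genes, that is near the 1.42% of all genes at or below it. The pattern for cadherins and protocadherins, with 54 such genes, also held 0 members. However, the rule set aside Cdh5 and Cdhr2, which met both limits. G protein-coupled receptors held 1 of 167, or 0.599%, and ion channels 1 of 106, or 0.943%, beside the same 1.42%. Symbols catch only part of a family and can take in genes outside it, and the 6 genes set aside are not counted as members in any.

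Where a gene had several probe sets, these read the same RNA on the same arrays and describe technical agreement only. Of the 75 genes, 45 had 1 probe set and 30 had several, with 48 further probe sets between them. Of the 48, 12 met both limits, 8 were above the lung-recovered floor but short of its limit, 24 were below the floor on both arrays and 4 were above the parental limit. Without any floor, 34 of the 48 were higher in lung-recovered cells, 10 were lower and 4 equal. For Fst, Gusb, Slc40a1, Bst1, Abca13 and Sbspon every further probe set met both limits, and for 10 genes every further one was below the floor on both arrays. Those 10 were Btn1a1, Ell2, Gucy1a2, Med12l, N4bp2l1, Ppp2r2c, Ppp3cc, Sspn, Wnt9a and Zc3h6. In Tenm2, Mylk and Mipol1 at least 1 further probe set was above the parental limit, so for these the parental line was not dim by every measure.

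**Figure D3:**
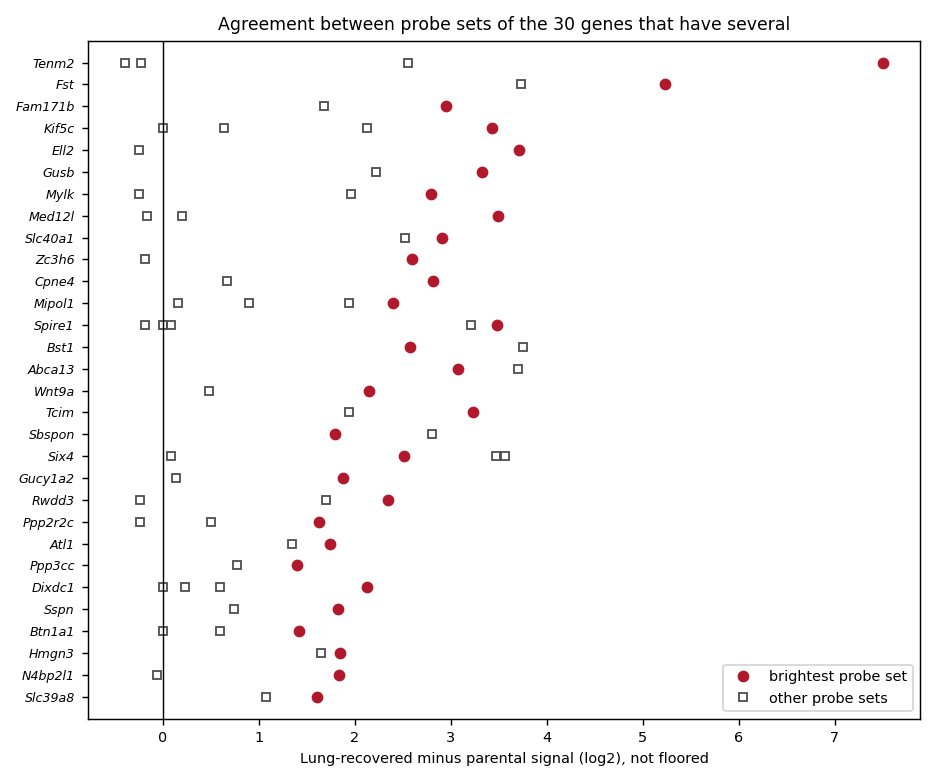
Lung-recovered minus parental signal (log2, horizontal axis, without floors) for the 30 genes with several probe sets; filled points are the probe set that represents the gene and open squares the 48 others. The points of Fst, Gusb, Slc40a1, Bst1, Abca13 and Sbspon all lie far to the right of 0, and those of Tenm2 spread from below 0 to above 7.

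The limits cut through a continuous range of signals. Just inside the lung-recovered limit were Lypd6b, Lemd1, Selenom, Slc39a8 and N4bp2l1, at 5.69 to 5.73 in lung-recovered cells. Just outside it were 1110046J04Rik at 5.68, Cyp2j6 and Dpy19l3 at 5.63, Il17rd at 5.60 and Krt23 at 5.58. Just inside the parental limit were Sec16b, Med9os, Arhgef3, Adamtsl4 and Slc16a6, at 4.63 to 4.69 in parental cells. Of genes at least 2-fold higher in lung-recovered cells, the nearest outside that limit were Pdx1, at 6.39 in lung-recovered and 4.70 in parental cells, Cyp1b1, at 8.86 in lung-recovered and 4.71 in parental cells, Zswim9, Fuca2 and E030042O20Rik. In all, 33 of the 75 genes lay within 0.25 log2 of one limit or the other, 17 of them near the parental and 21 near the lung-recovered limit.

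By location, members were found on every chromosome on which array genes were placed except Y. Chromosome 5 held 8, or 2.79% of its 287 genes at or below the parental limit, chromosomes 3 and 11 held 7 each, and chromosome 1 held 6. Chromosome 7 held only Tph1 among 406 such genes, or 0.246%, beside 1.42% over all chromosomes. The mirrored genes, lower in lung-recovered cells, were 54 among all 18193 genes. Chromosomes 7 and 16, with 1413 and 592 array genes, each held 1 member and 6 mirrored genes. Chromosome 12, with 622 array genes, held 3 members and 0 mirrored genes. With so few genes per chromosome, these counts are given as they stand.

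**Figure D4:**
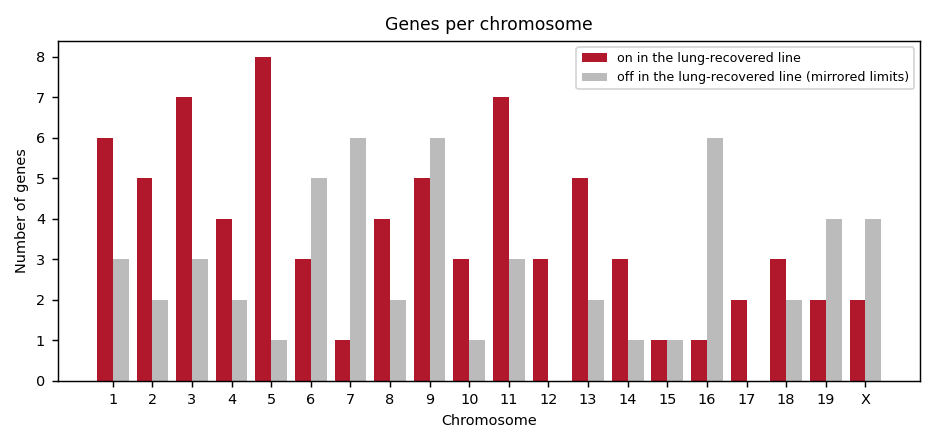
Number of genes (vertical axis) on each chromosome (horizontal axis) that met both limits in lung-recovered cells (dark bars, 75 genes) and that met the mirrored limits, high in parental cells (light bars). Chromosome 5 has the tallest dark bar, 8 genes, and chromosomes 7 and 16 have 1 dark gene beside 6 light ones.

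Some members lay close to one another. Kif5c and Lypd6b on chromosome 2 were adjacent among array genes. On chromosome 3, P2ry12 lies inside Med12l, and both were members, so probes for one may also lie in transcripts of the other, while Gpr171, P2ry14 and P2ry13, which also lie inside Med12l, were below the limits in both lines. P2ry13, for example, read 3.72 in lung-recovered and 3.54 in parental cells. Gpx8 and Fst on chromosome 13 had 8 array genes between them, none of which reached 2-fold by its brightest probe set. A dimmer probe set of Ndufs4, one of the 8, was 3.68-fold lower at 4.74 in lung-recovered and 6.62 in parental cells. Gpx8 itself lies inside Cdc20b, which was dim in both lines at 3.51 in lung-recovered and 3.58 in parental cells. A830052D11Rik and Tslp on chromosome 18, and Trap1a and Morc4 on the X chromosome, had 3 array genes between them.

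Next to Morc4, Cldn2, which encodes the pore-forming claudin 2 of leaky epithelia, was 21.9-fold higher, at 11.42 in lung-recovered and 6.97 in parental cells, and 9.19-fold higher by its other probe set. On the far side of Morc4, Rbm41 read 7.31 in lung-recovered and 7.30 in parental cells. Crybb1, whose end overlaps that of Cryba4 on chromosome 5, was 11.8-fold higher, at 9.0 in lung-recovered and 5.44 in parental cells, so both crystallin genes of this pair were higher. Rac2, a gene best known from blood cells that lies beside Cyth4 on chromosome 15, was 7.21-fold higher, at 8.23 in lung-recovered and 5.38 in parental cells, although its other probe set was dim in both lines. Muc1, the epithelial mucin gene beside Thbs3, was 3.14-fold higher at 7.26 in lung-recovered and 5.61 in parental cells. Brca2 beside N4bp2l1, Mnat1 beside Six4, Bin1 beside A830052D11Rik and Styk1 beside Klra2 were 2.07-fold to 2.6-fold higher, Bin1 by 1 of its 3 probe sets. Of 148 different neighbours on the array that were no members, 110 were measured, and 8 of them, or 7.27%, were at least 2-fold higher beside 4.42% of all measured genes. The 2 lower ones were Upp1, at 7.85 in lung-recovered and 9.01 in parental cells, and Cxcl5, at 7.37 in lung-recovered and 8.55 in parental cells. The measured neighbours had a median difference of 0.08 log2, beside 0.00 over all measured genes.

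**Figure D5:**
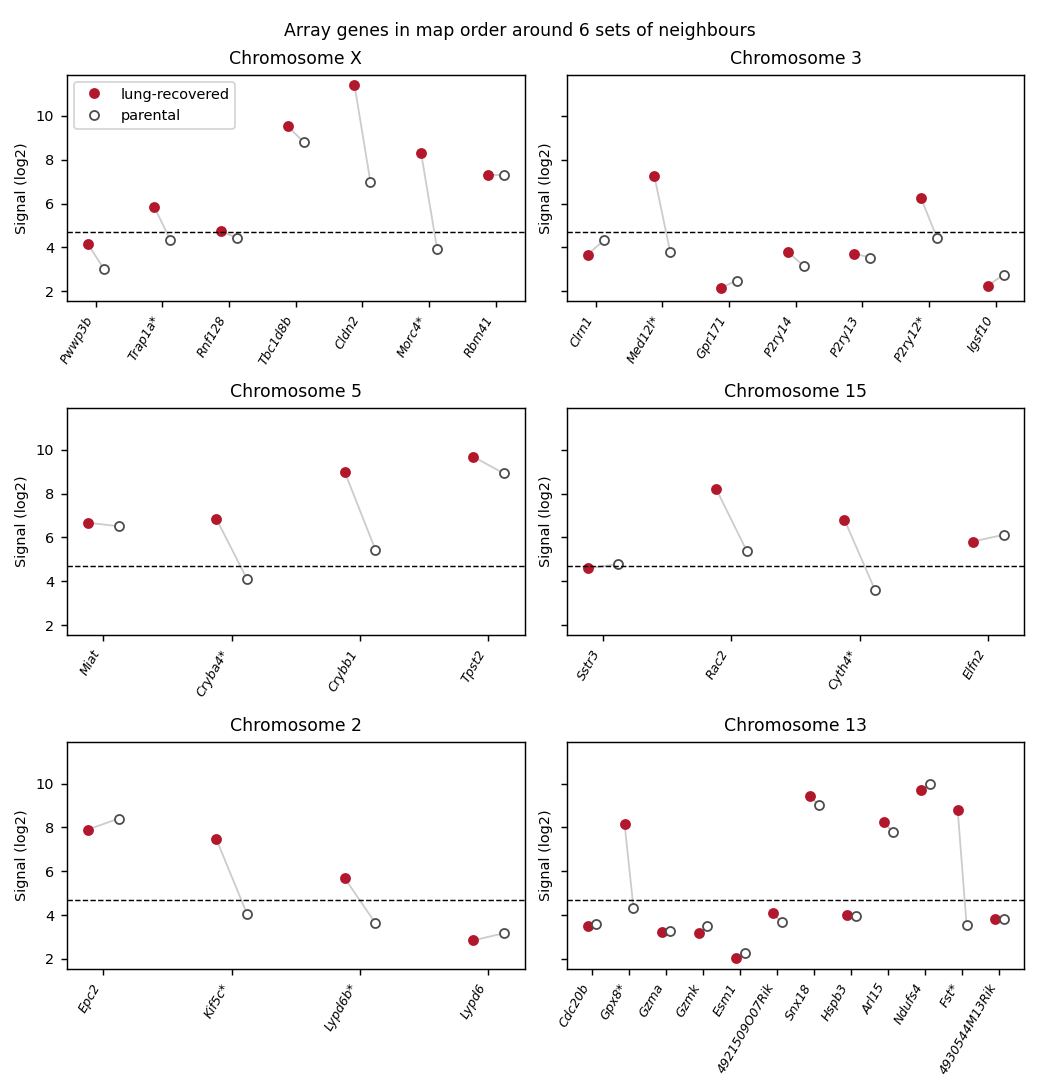
Signals (log2, vertical axis) of array genes in map order (horizontal axis) around 6 sets of neighbours, with lung-recovered cells filled and to the left of parental cells (open); an asterisk marks a member and the dashed line is 4.69 log2. Members stand beside genes that differ widely and genes that do not, as around Morc4, where Cldn2 reads 11.42 in lung-recovered and 6.97 in parental cells and Rbm41 reads 7.31 in lung-recovered and 7.30 in parental cells.

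Promoter sequence was not used in choosing the genes. RefSeq windows on GRCm38.p6, 250 bases before to 50 after the start, were matched for 54 of the 75 genes. CpG-rich promoters usually serve widely used genes, and CpG-poor ones usually serve genes restricted to certain tissues. Of the 54, 20, or 37.0%, were CpG-rich, with an observed over expected CpG ratio of at least 0.6 and a G+C content of at least 50%. The share was 27.5% of the 3270 other genes at or below the parental limit and 65.9% of the 9943 genes above it. The median CpG ratio was 0.556 in the members, 0.361 in the other dim genes and 0.751 in the brighter genes, so the members fell between. By the rule, members needed a lung-recovered signal. Of the 5275 genes at or below the parental limit, 4861 were below the floor on both arrays. Promoter features of the members were not set apart from that choice. The span can be seen in 4 promoters, from nearly free of CpG to dense with it, printed over the 250 bases before the start with each CpG in capitals.

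Ppbp, chr5:90768268-90768517, plus strand: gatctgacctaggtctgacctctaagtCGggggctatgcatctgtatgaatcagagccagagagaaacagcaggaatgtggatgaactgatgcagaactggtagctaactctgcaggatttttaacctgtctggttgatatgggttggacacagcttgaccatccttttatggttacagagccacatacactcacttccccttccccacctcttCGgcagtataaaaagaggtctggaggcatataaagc
Tph1, chr7:46672538-46672787, minus strand: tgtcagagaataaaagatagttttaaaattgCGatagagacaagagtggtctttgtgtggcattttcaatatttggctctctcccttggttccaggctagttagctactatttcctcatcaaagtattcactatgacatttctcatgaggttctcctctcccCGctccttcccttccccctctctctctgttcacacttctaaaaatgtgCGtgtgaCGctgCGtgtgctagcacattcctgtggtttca
Morc4, chrX:139871655-139871904, minus strand: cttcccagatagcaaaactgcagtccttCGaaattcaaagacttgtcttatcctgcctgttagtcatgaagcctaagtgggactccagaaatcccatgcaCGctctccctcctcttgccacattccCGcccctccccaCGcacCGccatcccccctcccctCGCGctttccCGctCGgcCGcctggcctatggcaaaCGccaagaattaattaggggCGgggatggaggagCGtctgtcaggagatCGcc
Fgf18, chr11:33147401-33147650, minus strand: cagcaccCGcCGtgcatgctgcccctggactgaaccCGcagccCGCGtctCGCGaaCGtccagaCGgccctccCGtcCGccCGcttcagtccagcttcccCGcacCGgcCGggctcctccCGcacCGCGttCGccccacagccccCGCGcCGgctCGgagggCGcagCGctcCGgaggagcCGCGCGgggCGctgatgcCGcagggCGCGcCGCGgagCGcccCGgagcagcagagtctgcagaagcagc

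These stretches hold 2 CpG sites in Ppbp, 5 in Tph1, 14 in Morc4 and 37 in Fgf18. The platelet chemokine gene and the serotonin enzyme thus have CpG-poor starts, and the growth factor gene a CpG-dense one, yet all 4 met the same limits. Their bounds were 2.73-fold for Ppbp, 10.6-fold for Tph1, 12.2-fold for Morc4 and 3.29-fold for Fgf18.

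In the windows, 6 short motifs were counted on both strands. The letters TGANTCA of AP-1 sites were found in 9 of the 54 members, or 16.7%, beside 8.99% of the other dim genes and 6.14% of all 13267 genes with a window. TGACG, the core of CRE sites, stood in 20 members, or 37.0%, beside 17.1% of the other dim genes and 27.5% of all, and GGAATG, the TEAD site, in 14, or 25.9%, beside 15.4% of the other dim genes and 12.8% of all. TGTGGT, the Runx site, stood in 18.5% of members, beside 16.1% of the other dim genes and 13.4% of all. TATAAA, the TATA box, was in 11.1% of members, beside 16.6% of the other dim genes and 9.69% of all, and GGGCGG, the GC box, in 48.1% of members, beside 35.6% of the other dim genes and 55.9% of all. The motifs can overlap, as where the last letters of a TEAD site begin a CRE, AP-1 or Runx site, and a match of letters does not show that a factor binds. Of the printed genes, the Ppbp window held the TATA, AP-1 and TEAD letters. The Tph1 window held the TEAD, CRE and Runx letters, the Morc4 window the TEAD and GC box letters, and the Fgf18 window the GC box letters.

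Several members are known from host cells of a lung tumour, so marker lists were set beside them. The array held 15 leukocyte markers, and 10 passed the floor in lung-recovered and 10 in parental cells; their summed linear signal was 1340 in lung-recovered and 2510 in parental cells. Ptprc, the common leukocyte antigen, was dim in both lines at 2.82 in lung-recovered and 3.31 in parental cells, as were Adgre1, Itgam, Tyrobp and Coro1a. Cd68 and Csf1r were at least 2-fold higher, at 7.05 in lung-recovered and 5.23 in parental cells for Cd68 and at 7.54 in lung-recovered and 6.42 in parental cells for Csf1r, and Cd14, Cd74 and Plek were at least 2-fold lower. Most of the gap between the sums came from Cd14, at 9.14 in lung-recovered and 10.63 in parental cells. Itgb2, P2ry12, Klra2, Bst1, Ppbp and Cyth4 are the members best known from blood cells.

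The summed signals of the other host cell lists were not higher in lung-recovered cells either. Of 15 endothelial markers 9 passed the floor in lung-recovered and 9 in parental cells, with a summed signal of 1540 in lung-recovered and 2250 in parental cells and Pecam1, Tie1, Vwf, Cldn5 and Emcn dim in both. That list moved unevenly: Cdh5, set aside above, was at least 24.4-fold higher, at 9.30 in lung-recovered and 4.21 in parental cells. Sox17 was 23.8-fold lower, at 5.23 in lung-recovered and 9.80 in parental cells, and Tek at least 15.8-fold lower, at 3.43 in lung-recovered and 8.57 in parental cells. Of 15 fibroblast and mural markers 7 passed the floor in lung-recovered and 6 in parental cells, with sums of 415 in lung-recovered and 479 in parental cells and Col1a1, Col3a1 and Pdgfra dim in both. Of 15 lung epithelial markers 10 passed the floor in each line, with sums of 1950 in lung-recovered and 2580 in parental cells and Sftpa1, Scgb1a1 and Nkx2-1 dim in both. The bright Aqp5 gave much of that gap, at 10.01 in lung-recovered and 10.68 in parental cells, and Rtkn2, also set aside, was at least 3.51-fold higher. The erythroid sum was 92 in lung-recovered and 100 in parental cells, and the neuroendocrine sum 116 in lung-recovered and 168 in parental cells. The epithelial markers Epcam, at 11.20 in lung-recovered and 10.36 in parental cells, and Cdh1, at 12.52 in lung-recovered and 12.66 in parental cells, were bright in both, whereas Krt20, Vil1, Cdx1, Car1 and Lgals4, which mark intestinal cells, were dim in both. Other gut markers were not: Guca2a was 3.89-fold higher, at 8.55 in lung-recovered and 6.59 in parental cells, Lgr5 was 4.0-fold higher, at 8.54 in lung-recovered and 6.54 in parental cells, and Cdx2, Muc2 and Tff3 were above the floor in both lines. The part of any host cell type in the members' signals was not tested.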

How the data were processed

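Total RNA of 1 lung-recovered and 1 parental culture was hybridised to 1 Affymetrix mouse array each. The authors deposited each array as log2 values of 45037 probe sets, rounded to 2 decimals. The log base was taken from the values and no header states it. MAS5 is named without a role or version, per the submitters' processing notes, and no other step of summary or scaling was found in the labels. The array medians were 5.26 in lung-recovered and 5.36 in parental cells, and values were used as deposited. The number of arrays, 1 per line, limits the precision.

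Probe sets were named through the platform annotation, which lists 35877 of them: 34945 with 1 symbol and 932 with several. Through their Entrez identifiers, 34741 probe sets took the current symbol of the GRCm38.p6 gene table, and 204 kept the older symbol. Each gene was read by its brightest probe set. A gene at or below the 40th percentile of an array was floored there, and a gene above the floor on at least 1 array counts as measured. Differences are lung-recovered minus parental. With 1 array per line no test was made and no p-value is given, so counts of family members stand beside the share over all genes. That the rule was coded as described was checked on simulated data. The simulated noise had the same size at all signals, so that check gives no rate of false calls for these arrays.

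The members, families, markers, role groups and partner lists were chosen with earlier results of these data known, the last 2 after the members were seen. Every member may be named, with most detail for the 30 with the highest lung-recovered signal and for those in families, near another member, near a limit or with disagreeing probe sets. Genes that are no members were named as partners or relatives of members, or as genes beside, between or overlapping them. Others were named as the nearest outside a limit, as cell type markers or as genes taken in by a match of symbols. Alternatives were other floor percentiles and margins, 3 scalings, other ways to choose the probe set and the return of the 6 genes set aside. Promoter windows were the first one listed per gene in RefSeq's table. Protein sequences were not used here. Python 3.11.15, numpy 2.4.6, pandas 2.3.3, statsmodels 0.14.6 and matplotlib 3.10.9 were used.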

Additional observations from a re-analysis of the deposited data

Results flagged for a closer look

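Outside the genes with 1 symbol, 5 probe sets without an entry in the annotation met both limits, a signal in data that the comparison of named genes does not use. They were 0.0831% of the 6017 unlisted probe sets at or below the parental limit, a smaller share than the 1.54% among named genes. Their median bound was 3.14-fold and their highest 4.06-fold. The mirrored limits were met by 21 unlisted probe sets.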

How the results depend on the processing

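The number of members depended on where the floor was set. The 75 genes became 16 with the floor at the 20th percentile, 46 at the 30th, 76 at the 50th and 94 at the 60th, and 7, 32, 35 and 17 of these were among the 75. A margin of 1.5 log2 above the floor left 43 and one of 2 log2 left 28. The mirrored count of 54 became 26 at the 20th percentile, and 99, 34 and 24 with margins of 0.5, 1.5 and 2 log2. At the 20th percentile these 26 outnumbered the 16 that met the rule without the genes set aside. With a margin of 0.5 log2, 107 genes met the rule, close to the 99 mirrored ones. The excess of genes on over genes off thus depended on the floor and margin. The median bound of 1.63 log2 became 2.06, 1.86 and 1.39 with the floor at the 20th, 30th and 60th percentile. No member had another member within 1 position in the full gene table, while 2 did among array genes only and 2 within 3 positions. Equal medians, quantile and lowess scaling each kept all 75 members, and counted 79, 79 and 80 genes. Equal medians raised lung-recovered signals by 0.1 log2 and left the parental limit at 4.69 log2, so no member could drop out. The lung-recovered floor of 4.59 log2 also rose under quantile scaling, to 4.64, and under lowess scaling, to 4.7. The parental floor became 4.64 under quantile and stayed at 4.69 under lowess scaling. All 3 thus raised dim lung-recovered signals relative to parental ones, so keeping the 75 does not test their membership. Taking the median over probe sets kept 58. Only Fam111a, Fst and Tenm2 stayed members under all 9 alternatives tried for single genes. No paired analysis was possible because each line has 1 array. With 1 array per line no replicate could be left out. Protein features were planned and not run.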
